A study of Rattus norvegicus with 9 samples.

Results

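The heme synthesis genes described here are 9, not all, of the nuclear genes that take glycine and succinyl-CoA to heme in mitochondria and cytosol. They are Alas2, Alad, Uros, Urod, Cpox, Ppox, Fech and the mitochondrial carriers Slc25a37 and Slc25a38. They were chosen by gene symbol from the raw count table, in which they are 9 of 23768 genes; the rule names symbols and uses no threshold on a value, but it was written with earlier results of these data known. RNA of the tibia of male Sprague Dawley rats was sequenced in 9 libraries, 3 from each of the treatment groups Model, GelMA and PMLGH. Model holds the libraries numbered 1, 2 and 5, and both hydrogel groups those numbered 2, 3 and 4. The study's title concerns a peptide that imitates the enzyme LOX, lysyl oxidase, and bone healing in diabetes. GelMA commonly stands for gelatin methacryloyl, modified gelatin that sets to a gel in light. Here GelMA and PMLGH are together called the hydrogel groups, although the labels give only these names. The labels give no age and no time of sampling, and they do not spell out PMLGH, state what the Model animals received, or name an allele. They also do not say that replicates are separate animals, so the p-values may in part measure technical spread. No batch is named in them.

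Heme is the iron-carrying ring that binds oxygen in hemoglobin. Its synthesis begins in the mitochondrion, where 5-aminolevulinate synthase joins glycine and succinyl-CoA, continues in the cytosol, and returns to the mitochondrion for its last steps, which end with the insertion of iron. Most heme of the body is made by developing red cells in bone marrow, which use their own synthase, Alas2, while other cells use Alas1. A tibia sample holds marrow, so its RNA includes that of these precursors. In such bulk RNA, fewer cells of a type and less RNA per cell cannot be told apart.

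Against Model, RNA of the heme synthesis genes was lower in both hydrogel groups. All 9 genes fell in PMLGH against Model, by 18.0% for Slc25a38 to 30.8% for Fech. In GelMA against Model 8 fell, by 19.2% for Alad to 32.4% for Uros, and Slc25a38 did not pass the test. Each gene had its 3 Model libraries above all 3 libraries of each hydrogel group. None was called between PMLGH and GelMA. Values below are CPM, a gene's counts scaled to library size, normalised between libraries by TMM, a factor that aligns most genes, and a gene was called at an adjusted p under 0.05 in edgeR's quasi-likelihood test.

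A lower call is not rare in these data. Of the 16816 genes tested, 11.9% fell in PMLGH against Model and 9.88% fell in GelMA against Model. The share of genes whose libraries lay without overlap below Model was 18.4% in PMLGH and 16.8% in GelMA. The median log2 fold change of the 9 genes was -0.43 in PMLGH and -0.36 in GelMA, beside 0.02 and 0.03 over all genes tested. All 9 passed the filter on low counts. Both comparisons use the same 3 Model libraries, so they are not independent, and their values are set side by side only. Together the 9 genes took 0.594% ± 0.059 of all counts in Model, 0.470% ± 0.010 in GelMA and 0.445% ± 0.027 in PMLGH (SD, n = 3 libraries each).

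**Figure D1:**
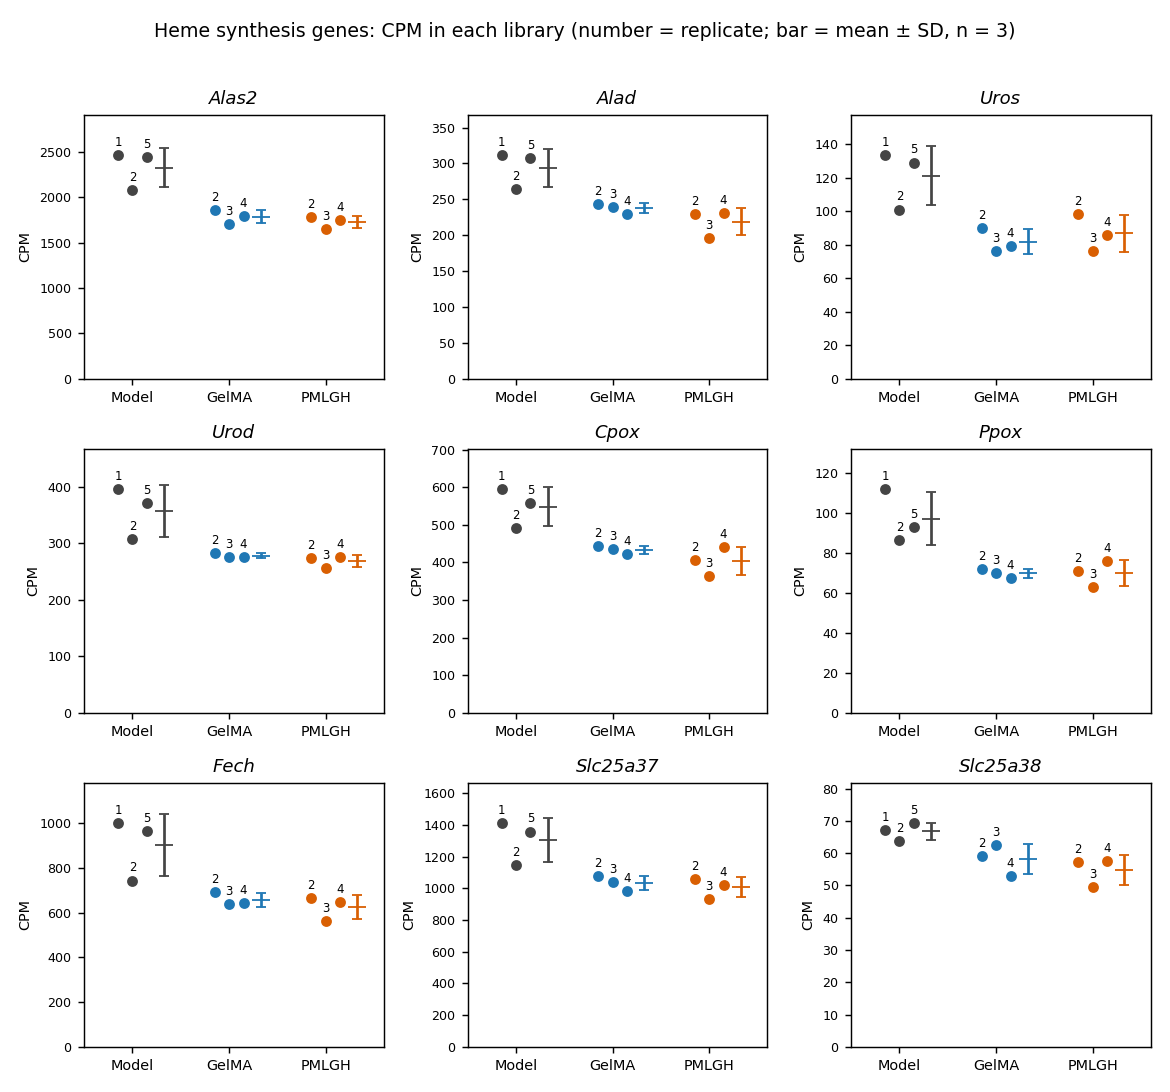
TMM-scaled CPM of the 9 heme synthesis genes in each of the 9 libraries; each panel is a gene, numbered points are libraries, and bars are group means ± SD (n = 3), with axes from 0. In every panel the 3 Model points lie above all GelMA and PMLGH points.

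Alas2 makes 5-aminolevulinate in red cell precursors and sets the pace of their heme synthesis; it had the highest level per length of the 9 genes. It was at 2460, 2077 and 2437 CPM in Model 1, 2 and 5, at 1856, 1705 and 1796 in GelMA 2, 3 and 4, and at 1781, 1651 and 1750 in PMLGH 2, 3 and 4. The lowest Model library, replicate 2, was still above the highest hydrogel library, and GelMA and PMLGH libraries interleaved. Alas2 fell by 25.7% in PMLGH (log2 fold change -0.43 ± 0.07 (SE), adjusted p = 3.96e-04) and fell by 23.2% in GelMA (-0.38 ± 0.07, adjusted p = 0.00133), by edgeR's quasi-likelihood test. The stretch of rat Alas2 DNA shown next holds the letters AGATAA, in capitals, the kind of word that GATA1, the factor that drives red cell genes, is known to bind. It lies at chrX:22895302-22895331 (GRCr8, RefSeq, + strand), 136 bases before the RefSeq transcript start used here. That start is 4800 bases downstream of the outermost Alas2 start, so the stretch lies inside the annotated gene.
Alas2 stretch: ccttgctgagaaAGATAAtgaggggggaat

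Alad joins 2 molecules of aminolevulinate to porphobilinogen in the cytosol. It had 311, 264 and 307 CPM in Model, 243, 240 and 229.9 in GelMA, and 229.7, 197 and 230.3 in PMLGH, in the order of replicates above. The hydrogel groups overlapped each other and stayed below Model. Alad fell by 25.5% in PMLGH (-0.43 ± 0.07, adjusted p = 6.48e-04) and fell by 19.2% in GelMA (-0.31 ± 0.07, adjusted p = 0.00792). Urod removes carboxyl groups from uroporphyrinogen III, giving coproporphyrinogen. Its levels were 396, 307 and 371 CPM in Model, 283, 276 and 275 in GelMA, and 274, 256 and 275 in PMLGH. Model replicate 2 was again the lowest of Model and yet above the hydrogel libraries. Urod fell by 24.9% in PMLGH (-0.41 ± 0.08, adjusted p = 0.00102) and fell by 22.3% in GelMA (-0.36 ± 0.08, adjusted p = 0.00329).

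The windows of 250 bases before the RefSeq start of Alad and of Urod are shown because both hold CACGTG, an E-box word, and GGGCGG, a word read on both strands; capitals mark these and, in Alad, CACCC (here as its reverse complement). They come from chr5:80987902-80988151 and chr5:135705381-135705630 (GRCr8, RefSeq), both on the - strand.
Alad: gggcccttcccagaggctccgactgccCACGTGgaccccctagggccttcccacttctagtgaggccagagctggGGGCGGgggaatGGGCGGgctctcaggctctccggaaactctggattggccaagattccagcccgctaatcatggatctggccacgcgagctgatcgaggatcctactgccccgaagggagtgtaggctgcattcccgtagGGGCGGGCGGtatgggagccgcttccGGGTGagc
Urod: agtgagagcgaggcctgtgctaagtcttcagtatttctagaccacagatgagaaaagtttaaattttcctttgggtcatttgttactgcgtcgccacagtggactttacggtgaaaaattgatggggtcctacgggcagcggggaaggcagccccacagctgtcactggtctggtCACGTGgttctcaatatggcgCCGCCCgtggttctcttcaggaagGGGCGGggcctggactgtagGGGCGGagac
Of the 9 genes, 7 had a window in the RefSeq table, while Cpox and Slc25a37 did not. The starts used for Uros and Ppox are 955 and 782 bases downstream of their outermost starts. Their windows, like that of Alas2, therefore lie inside the annotated gene. CACGTG was in 2 of 7 (Alad and Urod), beside 5.59% of 33469 rat windows of the same length. GGGCGG was in 3 of 7 (Alad, Urod and Fech), beside 30.5%. CACCC was in 2 of 7 (Alad and Slc25a38), beside 49.2%. The word GATA with A or T before it and A or G after it was in 2 of 7 (Alas2 and Fech), beside 27.0%; neighbouring matches of GGGCGG can overlap. Both strands were read. A match describes letters only, and a gene without a match may hold the word outside its window.

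Uros folds the linear tetrapyrrole into the ring of uroporphyrinogen III, the order of side chains that heme requires. It had 133, 101 and 129 CPM in Model, 90.1, 76.1 and 79.1 in GelMA, and 98.0, 76.4 and 85.8 in PMLGH. Model replicate 2 stood only just above PMLGH replicate 2, so the gap between the groups was narrow. Uros fell by 28.4% in PMLGH (-0.48 ± 0.10, adjusted p = 0.00319) and fell by 32.4% in GelMA (-0.57 ± 0.11, adjusted p = 0.00138).

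Cpox, which oxidizes coproporphyrinogen III between the mitochondrial membranes, and Ppox, which turns protoporphyrinogen IX into protoporphyrin IX, stand before the last step. Cpox had 594, 492 and 558 CPM in Model, 443, 437 and 421 in GelMA, and 407, 364 and 439.9 in PMLGH. Ppox was at 112, 86.5 and 93.2 CPM in Model, 72.1, 69.9 and 67.7 in GelMA, and 71.0, 63.3 and 76.0 in PMLGH. For both genes every Model library stood above the hydrogel libraries. Cpox fell by 26.4% in PMLGH (-0.44 ± 0.08, adjusted p = 6.45e-04) and fell by 20.9% in GelMA (-0.34 ± 0.08, adjusted p = 0.00554). Ppox fell by 27.9% in PMLGH (-0.47 ± 0.09, adjusted p = 0.00101) and fell by 28.1% in GelMA (-0.48 ± 0.09, adjusted p = 0.00129).

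Fech, which puts iron into protoporphyrin IX to make heme, had 998, 743 and 966 CPM in Model, 693, 637 and 640.4 in GelMA, and 663, 562 and 649 in PMLGH. Relative to their mean its Model libraries spread widest of the 9 genes, with replicate 2 far below the other two. Fech fell by 30.8% in PMLGH (-0.53 ± 0.10, adjusted p = 8.23e-04) and fell by 27.2% in GelMA (-0.46 ± 0.10, adjusted p = 0.00304).

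The carriers sit in the inner mitochondrial membrane. Slc25a37 (mitoferrin 1) brings in iron for Fech, and Slc25a38 imports glycine for Alas2. Slc25a37 had 1411, 1147 and 1359 CPM in Model, 1078, 1038 and 986 in GelMA, and 1059, 936 and 1024 in PMLGH. Slc25a37 fell by 22.9% in PMLGH (-0.38 ± 0.08, adjusted p = 0.00208) and fell by 20.8% in GelMA (-0.34 ± 0.08, adjusted p = 0.00549). Of the 9 genes the glycine carrier had the smallest log2 fold changes against Model. Slc25a38 had 67.2, 63.9 and 69.2 CPM in Model, 59.0, 62.4 and 53.0 in GelMA, and 57.3, 49.5 and 57.5 in PMLGH. GelMA replicate 3 came within 2 CPM of Model replicate 2. Slc25a38 fell by 18.0% in PMLGH (-0.29 ± 0.08, adjusted p = 0.0108), a call lost without PMLGH replicate 3 (-0.22, adjusted p = 0.0661). In GelMA it had a log2 fold change of -0.20 ± 0.08 (adjusted p = 0.0709), and it passed when Model replicate 2 (-0.26, adjusted p = 0.0177) or GelMA replicate 3 (-0.27, adjusted p = 0.0450) was left out.

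**Figure D2:**
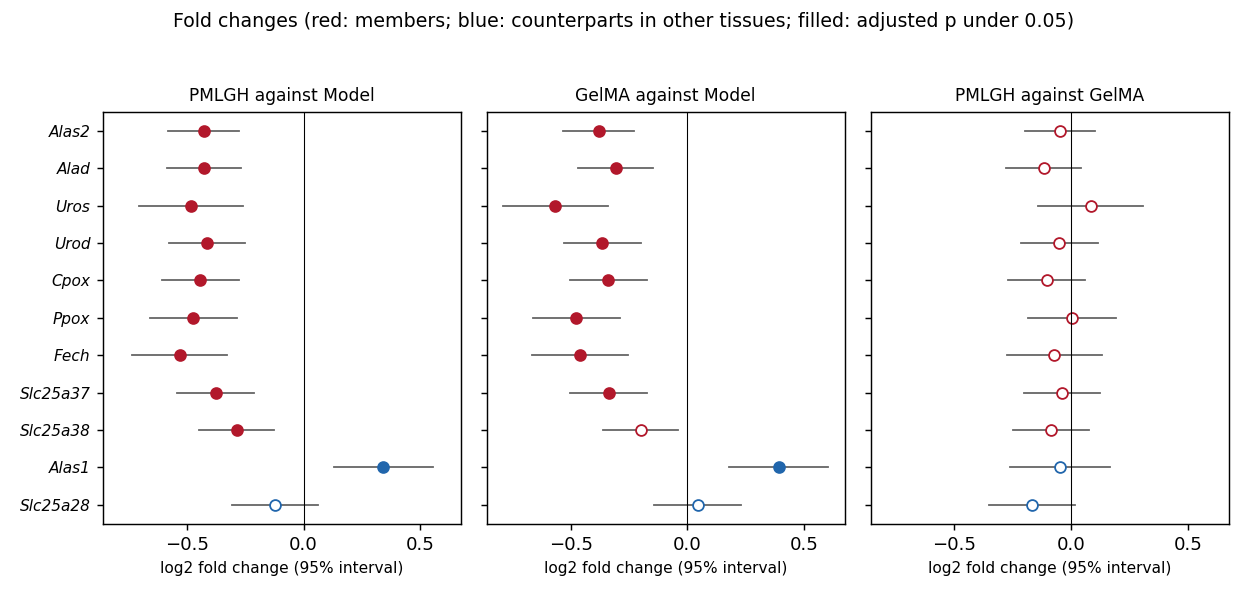
Log2 fold change (x axis) with its 95% interval from edgeR's quasi-likelihood fit for the 9 genes (red) and Alas1 and Slc25a28 (blue), filled where adjusted p was under 0.05, in the 3 comparisons. Against Model all 9 red estimates are below 0, from -0.57 (Uros in GelMA) to -0.20 (Slc25a38 in GelMA).

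Some libraries held the same place within their group for most of the 9 genes. Model replicate 2 was the lowest Model library for 9 of 9 genes, and Model replicate 1 the highest for 8. PMLGH replicate 3 was the lowest PMLGH library for 9 of 9, and GelMA replicate 2 the highest GelMA library for 8. Other places were shared: the highest PMLGH library was replicate 2 for 4 genes and replicate 4 for 5, and the lowest GelMA library was replicate 4 for 6 and replicate 3 for 3. Without Model replicate 2 the median log2 fold change was -0.54 in PMLGH and -0.49 in GelMA. Over the 9 libraries the genes' log2 CPM were correlated in all 36 pairs, with Pearson r from 0.79 (Uros and Slc25a38) to 0.99 and a median of 0.96; without Slc25a38 the lowest was 0.89. These r describe 9 libraries that share the group differences.

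Per length, in FPKM (fragments scaled to gene length and library total), Alas2 was the most abundant of the 9 in all groups: 1059 ± 89.7 in Model, 836 ± 28.4 in GelMA and 795 ± 32.5 in PMLGH (SD, n = 3). Urod (282 ± 33.9 in Model), Slc25a37 (270 ± 26.8) and Fech (258 ± 37.8) followed, of which Urod and Slc25a37, and Slc25a37 and Fech, overlapped in their Model libraries. Cpox (197 ± 17.0) and Alad (185 ± 15.1) came next and overlapped. The lowest were Ppox (40.5 ± 5.19), Uros (37.5 ± 5.15) and Slc25a38 (29.7 ± 1.02), of which Ppox and Uros overlapped. In GelMA and PMLGH the same 6 genes led in the same order, followed by Ppox (29.9 ± 0.62 and 29.5 ± 2.54), Uros (26.05 ± 2.02 and 27.2 ± 3.52) and Slc25a38 (26.6 ± 2.14 and 24.6 ± 2.03), of which the last stood above Uros in GelMA. Uros and Slc25a38, which stood apart in Model, overlapped in both. The mean ratio of Alas2 to Urod was 3.76, 3.71 and 3.71 in Model, GelMA and PMLGH, and that of Alas2 to Slc25a38 was 35.6, 31.6 and 32.4.

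The pathway also has counterparts that other tissues use. Alas1 is the synthase of other tissues; it had 86.4, 119 and 98.7 CPM in Model, 140.1, 125 and 133 in GelMA, and 113, 140.4 and 132 in PMLGH. GelMA libraries were above all Model libraries, and PMLGH overlapped Model. Such rises were called for 12.7% of genes in GelMA and 15.7% in PMLGH, and 19.8% of genes lay without overlap above Model in GelMA. Alas1 rose in GelMA (log2 fold change 0.39 ± 0.10, adjusted p = 0.0112) and in PMLGH (0.34 ± 0.10, adjusted p = 0.0194). The GelMA call was lost without Model replicate 1 (0.29, adjusted p = 0.0550). The PMLGH call was lost without Model replicate 1 (0.24, adjusted p = 0.0941), Model replicate 5 (0.31, adjusted p = 0.0690), PMLGH replicate 3 (0.27, adjusted p = 0.105) or PMLGH replicate 4 (0.32, adjusted p = 0.0664). Slc25a28 (mitoferrin 2, the iron carrier of most tissues) had log2 fold changes of -0.12 ± 0.09 in PMLGH (adjusted p = 0.325) and 0.04 ± 0.09 in GelMA (adjusted p = 0.768).

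The FPKM ratio of Alas2 to Alas1 was 28.0, 17.2 and 24.3 in Model, 13.0, 13.4 and 13.2 in GelMA, and 15.5, 11.6 and 13.1 in PMLGH. All hydrogel values were below all Model values, with means of 23.2 ± 5.51, 13.2 ± 0.19 and 13.4 ± 1.97. An exact permutation test gave p = 0.1 for each hydrogel group against Model, two-sided, the smallest that 3 against 3 libraries allow. The ratio of Slc25a37 to Slc25a28 was 9.29 ± 1.01 in Model, 7.17 ± 1.00 in GelMA (exact permutation p = 0.1) and 7.79 ± 0.76 in PMLGH (exact permutation p = 0.2). Over the 8 ratio tests made (these and Alas2 to Fech and to Slc25a38), no Benjamini-Hochberg adjusted permutation p was under 0.267.

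**Figure D3:**
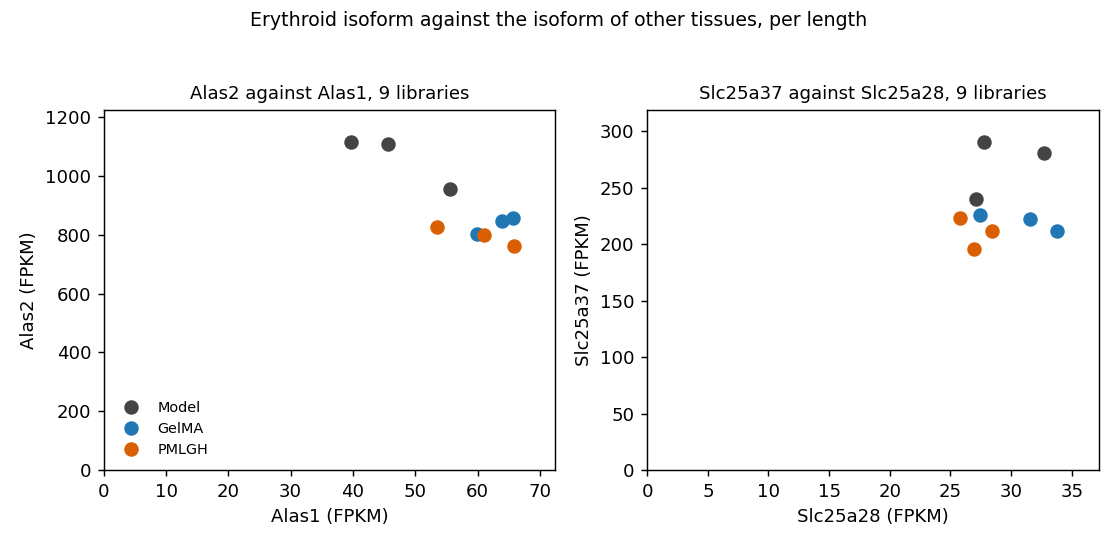
FPKM of the erythroid gene against its counterpart in other tissues in the 9 libraries, for Alas2 and Alas1 (left) and Slc25a37 and Slc25a28 (right), colours for groups, axes from 0. In both panels the 3 Model points lie above all other points along the y axis, where GelMA and PMLGH overlap. Along the x axis Model and PMLGH overlap in the left panel, with GelMA above Model, and the groups mix in the right panel.

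Other red cell genes were lower too. Of 12 erythroid transcription factor and receptor genes 12 fell in PMLGH (median log2 fold change -0.43) and 11 in GelMA (-0.38); among them Gata1 had -0.48 and -0.50, Gfi1b -0.61 and -0.52, and Zfpm1, the cofactor of Gata1, -0.53 and -0.36. Of 18 red cell membrane genes 17 fell in each group, with Kel (a blood group protein) at -0.52 and -0.43 and Epb42 (protein 4.2) at -0.55 and -0.44. Of 12 late red cell enzyme and organelle clearance genes 11 fell in each, with Pklr, the pyruvate kinase of red cells, at -0.57 and -0.51. Of 10 globin and chaperone genes tested, 8 fell in each, including Ahsp, which keeps free alpha globin soluble, at -0.56 and -0.59; globin genes share near-identical copies, so their counts are uncertain.

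The heme genes were also set against these genes within each library. Averaged over 42 erythroid genes outside the 9 (globins left out), log2 CPM was 8.65 ± 0.17 in Model, 8.23 ± 0.06 in GelMA and 8.22 ± 0.07 in PMLGH, and over the 9 it was 8.52 ± 0.16, 8.14 ± 0.05 and 8.09 ± 0.11 (SD, n = 3). After subtraction of that erythroid mean in each library, Alas2 differed from Model by 0.00 in PMLGH and 0.04 in GelMA on the log2 scale, and Fech by -0.09 and -0.03, with overlapping libraries. Slc25a37 differed from Model by 0.06 in PMLGH and 0.08 in GelMA, and with the red cell membrane genes alone as the reference its PMLGH libraries overlapped Model. Slc25a38 differed by 0.14 and 0.21, with overlapping libraries. In GelMA, Alad differed by 0.11, Cpox by 0.08 and Uros by -0.14; with the membrane reference the Uros libraries overlapped Model. No test was made of these differences, and the genes were singled out after their values were seen.

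**Figure D4:**
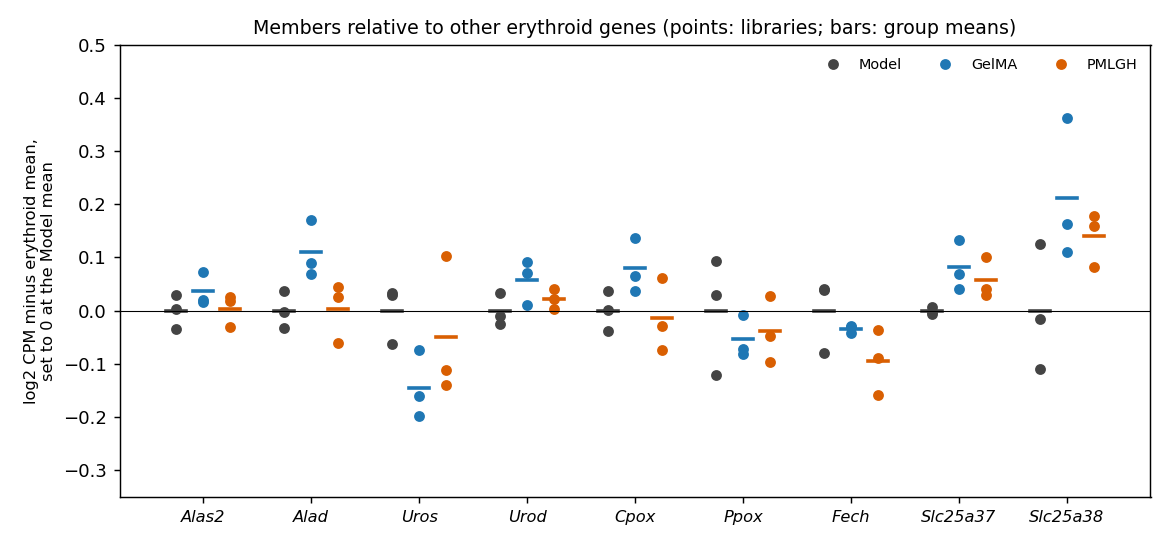
Log2 CPM of each of the 9 genes minus the mean log2 CPM of 42 other erythroid genes, set to 0 at the Model mean; points are libraries, bars group means, colours groups. Alas2 differs from Model by 0.00 (PMLGH) and 0.04 (GelMA), Slc25a38 by 0.14 and 0.21.

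Of 19 genes of heme transport and cofactors, 12 fell and 1 rose in each group (medians -0.32 in PMLGH and -0.24 in GelMA). Among them were Abcb10, which stabilizes mitoferrin 1 (-0.46 and -0.40), Slc25a39, a carrier of glutathione into mitochondria (-0.47 and -0.41), Abcb6, a porphyrin transporter (-0.46 and -0.24), and Fam210b, a mitochondrial protein of erythroid cells (-0.40 and -0.24). The riser, Pgrmc1, a heme-binding protein, had 0.29 and 0.23, and was named after its values were seen. Its GelMA call was lost on leaving out Model replicate 1, Model replicate 5, GelMA replicate 3, GelMA replicate 4 or PMLGH replicate 3. Of 14 iron uptake and storage genes, 6 fell in each. Tfr2, the second transferrin receptor, had -0.68 and -0.60, and Ncoa4, which takes ferritin to lysosomes, -0.33 and -0.38. Aco1, the cytosolic iron-sensing aconitase, had 0.23 in PMLGH and was named after its values were seen; this was its list's only rise there, and the count was 0 without Model replicate 1, Model replicate 5, PMLGH replicate 3 or PMLGH replicate 4 and 2 without Model replicate 2. In GelMA the count of risers was 1 without Model replicate 2. Of 10 heme breakdown genes 4 fell in PMLGH and 6 in GelMA, including Blvrb, a biliverdin reductase (-0.46 and -0.28), and Bach1, a heme-sensing repressor (-0.31 and -0.37).

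Mitochondrial carriers other than those for heme had medians near 0. Of 26, 3 rose and 5 fell in PMLGH and 2 rose and 5 fell in GelMA (medians -0.03 and -0.06). The number that fell in PMLGH was 3 without Model replicate 1, 1 without Model replicate 5, 2 without PMLGH replicate 3 and 3 without PMLGH replicate 4. In GelMA it was 2 without Model replicate 5 and 3 without GelMA replicate 4. Slc25a42, the coenzyme A carrier, had -0.51 and -0.38, and Slc25a4, an ADP/ATP carrier of muscle and other tissues, had 0.26 and 0.49.

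**Figure D5:**
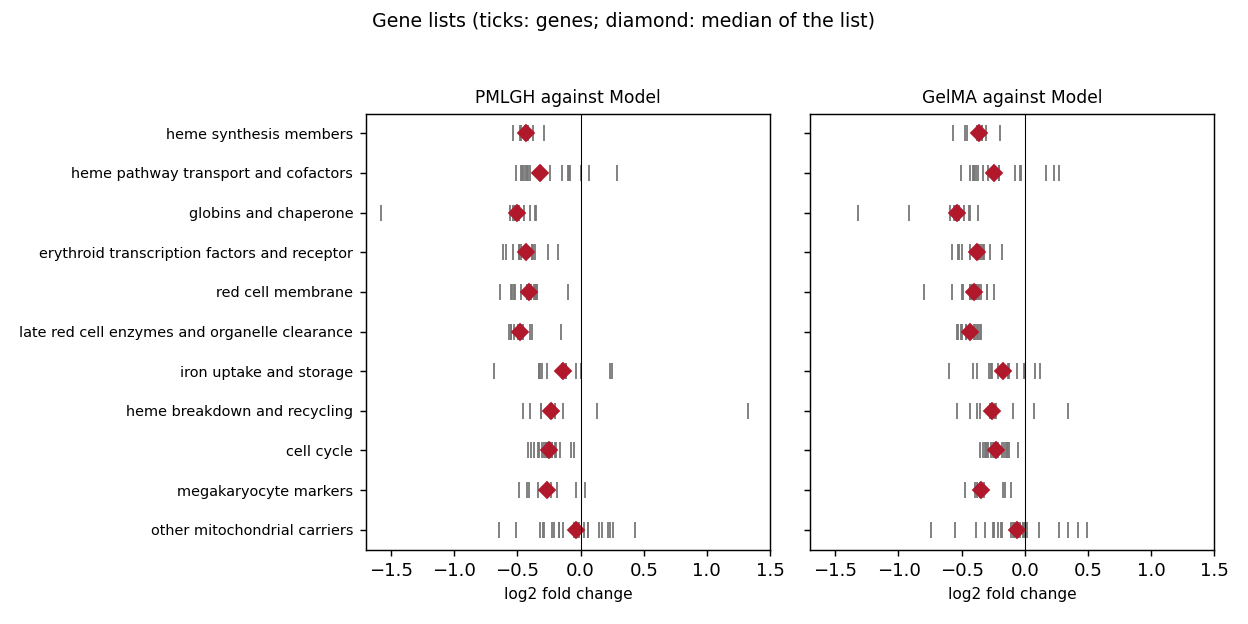
Log2 fold change against Model of the genes of each list (ticks) with the list's median (diamond), for PMLGH (left) and GelMA (right). The medians of the heme synthesis genes are -0.43 and -0.36, those of the other mitochondrial carriers -0.03 and -0.06.

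Markers of some other cells also differed between groups, while those of others overlapped. Osteoblast markers summed to 15935 to 20242 CPM in Model, 32594 to 36145 in GelMA and 34514 to 39955 in PMLGH. Of these markers 10 of 10 rose in GelMA and 8 of 10 in PMLGH. The collagen genes Col1a1 and Col1a2 made up most of these sums, with means of 9734 and 5362 of 18364 CPM in Model. Dmp1 had a mean of 405 CPM in Model, 822 in GelMA and 382 in PMLGH. Dmp1 and the collagen genes were named after their values were seen. Muscle markers summed to 587 to 830 CPM in Model, 2762 to 3388 in GelMA and 933 to 1291 in PMLGH; 12 of 12 rose in GelMA and 9 of 12 in PMLGH. Osteoclast markers summed to 1553 to 1977, 2508 to 2650.4 and 2865 to 3465 CPM in Model, GelMA and PMLGH. Of 7 osteoclast genes tested, 4 rose in GelMA and 6 in PMLGH. Calcr, named after its values were seen, had a mean of 4.26 CPM in Model, 6.75 in GelMA and 2.49 in PMLGH. In PMLGH against Model 0 osteoclast genes fell, and 1 fell without Model replicate 2 or PMLGH replicate 2. Macrophage markers ranged over 1033 to 1183, 1082 to 1178 and 1371 to 1407 CPM. Neutrophil markers ranged over 10897 to 14333, 12481 to 13466 and 12509 to 15981 CPM, overlapping between all groups. Cell cycle genes, which dividing precursors also use, fell in 22 of 25 genes in PMLGH and 17 in GelMA (medians -0.25 and -0.23). Megakaryocyte markers, of a lineage close to red cells, summed to 911 to 957 CPM in Model, 713 to 798 in GelMA and 758 to 795 in PMLGH. B cell markers summed to 322 to 513, 455 to 582 and 301 to 359 CPM. Adipocyte and liver-type markers summed to 729.9 to 996 CPM in Model, 529.5 to 609 in GelMA and 648 to 722 in PMLGH, without overlap. Fabp4 made up most of these sums, with a mean of 631 of 865 CPM in Model. Adipoq, Plin1 and Cidec overlapped between Model and PMLGH; these 4 genes were named after their values were seen. Of 6 genes tested 3 fell in each group, and in PMLGH 1 fell without Model replicate 5, PMLGH replicate 2 or PMLGH replicate 3. The list's median log2 fold changes were -0.46 in PMLGH and -0.63 in GelMA. The part these other cells play in the heme gene values was not tested. Library totals ran from 34571478 to 37166383 counts, with all Model libraries below all GelMA and these below all PMLGH. Marco, Ltf and Alb had next to no counts (2, 38 and 13 over all 9 libraries).

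Between PMLGH and GelMA, no heme gene was called, beside 1.64% of genes that fell and 1.8% that rose. None had an unadjusted p under 0.05 either, the smallest being 0.135 (Alad), and DESeq2 and limma also called 0. Differences ran from -0.12 for Alad (95% interval -0.28 to 0.04) to 0.08 for Uros (-0.14 to 0.31), with adjusted p from 0.490 to 0.992. For Alas2 the difference was -0.05 (-0.20 to 0.10), and for Slc25a38 -0.09 (-0.25 to 0.07). Intervals of this width leave room for a difference either way, so the groups are not shown to be alike. Only Urod had PMLGH libraries all below the GelMA libraries, beside 11.4% of genes. Its gap was narrow, with 274.9 CPM in PMLGH replicate 4 and 275.1 in GelMA replicate 4. Of 12 muscle markers 11 fell in PMLGH against GelMA, and of 10 B cell markers 8 fell (3 without GelMA replicate 3, GelMA replicate 4 or PMLGH replicate 4, and 4 without PMLGH replicate 2 or PMLGH replicate 3), while the heme, iron and other red cell lists had 0 calls.

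Genes whose pattern over the 9 libraries was most like a member's, by Pearson r of log2 CPM among 14206 genes, are given as a description. They were picked for the highest r, and the libraries share the group differences, so a high r does not mark a shared function. For Alas2 they were Ldb1 (a partner of GATA1, r = 0.997), Mier1 and Rbm38. For Urod they were Tfr2 (r = 0.996), Car2 and Ermap, the last 2 a carbonic anhydrase and a red cell membrane protein. Fech was likest to Prdx2, an antioxidant of red cells (r = 0.998), and Gclm came next. Uros had Ahsp (r = 0.993), Atf4 and Naca, and Cpox had Mtfr1 (r = 0.996), Slbp and Dlst. Alad was likest to Ctbp1, Mtfr1 and Atp5f1b, and Ppox to Rrm1 (r = 0.992), Ptdss2 and Hipk1. Slc25a37 was likest to Gclm (r = 0.993), Arf5 and Vrk1, and Slc25a38 to Sptbn4 (r = 0.981), Cdc45 and Wdcp.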

How the data were processed

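RNA of rat tibia was sequenced in 9 libraries of 3 groups, assigned from the treatment labels. The deposited table holds the authors' raw counts per gene, and a second table holds the authors' FPKM values; each FPKM equalled the count over library total and gene length within 1e-04, so it is no independent measurement. DESeq2 and R 3.2.0 are named in the submitters' processing notes; the aligner, counter, strand setting and genome build behind the counts were not given in the sources used, and sense and antisense reads may be mixed. Genes and lists were chosen with earlier results of these data known.

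Counts were tested with edgeR 4.0.16 in R 4.3.3 (filterByExpr with a minimum count of 10, TMM, quasi-likelihood fit over all 9 libraries, 6 residual degrees of freedom), Benjamini-Hochberg adjusted over 16816 genes; SE is the log2 fold change over the root of F. The method was tested on simulated data. Alternatives were DESeq2 1.42.0, limma 3.58.1 on log2(FPKM + 1) or log2(FPKM + 0.1), other scalings and left-out libraries. Named are the 9 genes, Alas1 and Slc25a28, up to 4 genes of smallest p per list in PMLGH against Model, and the 3 likest genes per member, unless said otherwise; an item that the rule also names is not reported here. Replicates of a group differed beyond counting noise, so no library was a copy. List symbols Flvcr1, Dcstamp, Gp1bb and Ttr did not match a row. Promoter windows are from RefSeq (GRCr8).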

Additional observations from a re-analysis of the deposited data

How the results depend on the processing

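The counts of heme genes called were within 1.5 times the reported ones under every alternative run: 8 or 9 fell against Model, 0 were called between PMLGH and GelMA. Slc25a38 in GelMA also passed with RLE scaling (-0.22, adjusted p = 0.0498), TMM without erythroid genes (-0.23, adjusted p = 0.0401), no filter (-0.22, adjusted p = 0.0350) and DESeq2 (-0.22, adjusted p = 0.0446). Among differences between PMLGH and GelMA that were not called, Ppox (0.0040) turned to -0.015 with upper-quartile scaling, -0.023 and -0.024 with limma on log2(FPKM + 1) and log2(FPKM + 0.1), and ranged from -0.058 to 0.072 without single libraries. Leaving out single libraries also turned Uros (-0.019 to 0.17), Slc25a37 (-0.083 to 0.010), Alas1 (-0.12 to 0.029) and, in GelMA against Model, Slc25a28 (-0.043 to 0.13). Pgrmc1's list had 0 rises in GelMA with RLE scaling, TMM without erythroid genes, no filter, only the groups compared, or DESeq2. Under limma with either pseudocount, 3 and 4 globin genes fell in PMLGH and 5 in GelMA, against 8; 2 other carriers fell in GelMA, against 5. Heme breakdown genes that fell in PMLGH were 7, against 4, with upper-quartile scaling, no filter and DESeq2, and other carriers 8, against 5, with upper-quartile scaling. Muscle markers that rose in PMLGH against Model, 9 in the main fit, ranged from 4 to 10 over the alternatives. The cause was not tested. Over all genes, the count that fell in PMLGH against Model, 1994, was 1268 without PMLGH replicate 3; in GelMA against Model, 1661 became 1035 without Model replicate 1, 1088 without Model replicate 5, and 1107 and 1103 with limma. Between PMLGH and GelMA, 303 rose and 275 fell, ranging from 143 to 590 and 144 to 469 over the alternatives.

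Same-numbered GelMA and PMLGH libraries did not deviate together over 16816 genes (r = 0.014, 0.027 and -0.0083 for replicates 2, 3 and 4). Not every library correlated best with its own number. With 3 libraries a group this check cannot exclude a weak pairing by number. With the replicate block 0 heme genes fell and 0 rose, Ppox was at -8.51e-05, and over all genes 577 rose and 460 fell. No paired analysis was possible for the comparisons with Model because they share only replicate number 2. Between replicates of a group the chi-square per gene was at least 7.56, where counting noise alone gives about 1, so the spread between libraries rather than depth limits the precision.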
